A study of Mus musculus and Homo sapiens with 12 samples.

Results

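The subject here is a set of genes for the enzymes and readers that place, remove or bind methyl and acetyl marks on histones and DNA. They were taken by gene symbol: lysine methyltransferases of the KMT, SETD, NSD, SUV39H, EHMT and DOT1L families, the core of Polycomb repressive complex 2 (PRC2), chromobox proteins, KDM demethylases, histone deacetylases (HDACs), sirtuins, DNA methyltransferases with their UHRF partners, and TET dioxygenases. The rule found 81 genes among the 23201 of the mouse table and 80 among the 18190 of the human table. All of them had an adjusted p. The 80 human genes have a mouse namesake in the set, and EHMT2 was not analysed here in the human model.

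DNA methylation at CpG sites is set by DNMT3A and DNMT3B and copied at each round of replication by DNMT1, which UHRF1 brings to newly made DNA. TET enzymes oxidise the methyl group as a step towards its removal. Histone methylation marks active genes (lysine 4, 36 and 79 of histone H3) or silent ones (lysines 9 and 27 of H3, lysine 20 of H4), and each mark has its writers, readers and erasers. HDACs take acetyl groups off histones and other proteins within corepressor complexes. In pancreatic ductal carcinoma, genes of this kind such as KDM6A and KMT2D are known to be mutated in some tumours.

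RNA was sequenced in 12 samples, 3 biological replicates in each of 4 groups. The mouse model compares KPC, a line of pancreatic ductal carcinoma, with KPC LM2, its liver metastatic derivative of generation 2. The human model compares PANC1, an established pancreatic carcinoma line, with PANC1 LM3, derived from it in the same way to generation 3. The labels give the genotype of all 4 groups as WT, with 500000 cells placed in the spleen by injection (day 1) and tumours taken from the liver on day 21. They name no host strain, do not say whether replicates came from separate animals, and do not say whether a derivative is 1 clone. The p-values therefore measure only the spread between these samples, which may be technical. Each comparison asked how the samples of a derivative line differed from those of its parental line.

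The values came as 1 table per model made by the authors, with a mean normalised count over the samples (called the mean count), a log2 fold change, its standard error (SE, printed after ±) and a Wald test adjusted p for each gene. No value per sample was used here, so neither the depth of a sample nor the overlap of groups is known. Neither table states the direction of its ratio. A positive or negative value is therefore given as listed and is assigned to neither line. A gene is called where its adjusted p is under 0.05. The sample titles name cell lines while the protocol describes RNA from liver tumours, and whether whole tumours or cells taken from them were used was not settled. In bulk RNA, fewer cells of a type and less RNA per cell cannot be told apart. Mean counts are not corrected for gene length, so they give the reads behind a value and are not compared between genes.

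Few of these genes were called in the mouse model. In the authors' deposited table for KPC, 7 of 81 were called (8.64%), against 10.4% of all 20050 genes tested. Of these 6 were positive (background 5.77%) and 1 was negative (background 4.60%). The positive ones were Kmt2e, Tet2, Hdac6, Hdac2, Dnmt1 and Kmt5a, and the negative one was Cbx2. None of the 7 reached a log2 fold change of 1 in either direction; they lay between 0.53 and 0.99 in absolute size in the authors' deposited table. At a mean count of at least 64 the shares were 10.1% of 69 members and 12.7% of 9767 genes in the authors' deposited table. The share of members called was near or under the background.

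Most were called in the human model, where most expressed genes were called too. In the authors' deposited table for PANC1, 48 of 80 passed (60.0%), against 52.5% of all 17838 genes tested. Positive calls numbered 23 (background 26.0%) and negative calls 25 (background 26.5%). At a mean count of at least 64, 63.2% of 76 members and 69.3% of 11301 genes were called in the authors' deposited table. The members' count was thus no larger than that of expressed genes at large. Only HDAC9 and KDM7A passed a log2 fold change of 1, so most calls were of small changes measured with small errors. The median SE of the members was 0.0866 in PANC1 and 0.229 in KPC in the authors' deposited tables.

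In KPC the listed fold changes moved with expression level. Genes whose mean count was at least 64 had a median log2 fold change of 0.22 in the authors' deposited table, while all genes tested had a median of -0.08. The members' median was 0.16 over all 81 and 0.17 over the 69 at that level, under the median of other genes as well expressed. After recentring on genes at 64 or more, Kmt2e (0.52, adjusted p = 0.036) and Cbx2 (-1.21, adjusted p = 4.6e-05) kept their calls, and the other 5 lost theirs. Nsd1, at -0.36 ± 0.18 (adjusted p = 0.18) in the authors' deposited table, was then called at -0.58 (adjusted p = 0.024); it was singled out after its value was seen. When a running median over level was subtracted, Cbx2 and Nsd1 were the only calls and Kmt2e was at 0.50 (adjusted p = 0.067). In PANC1 the median of genes at 64 or more was -0.03, and that of the members was -0.03.

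**Figure D1:**
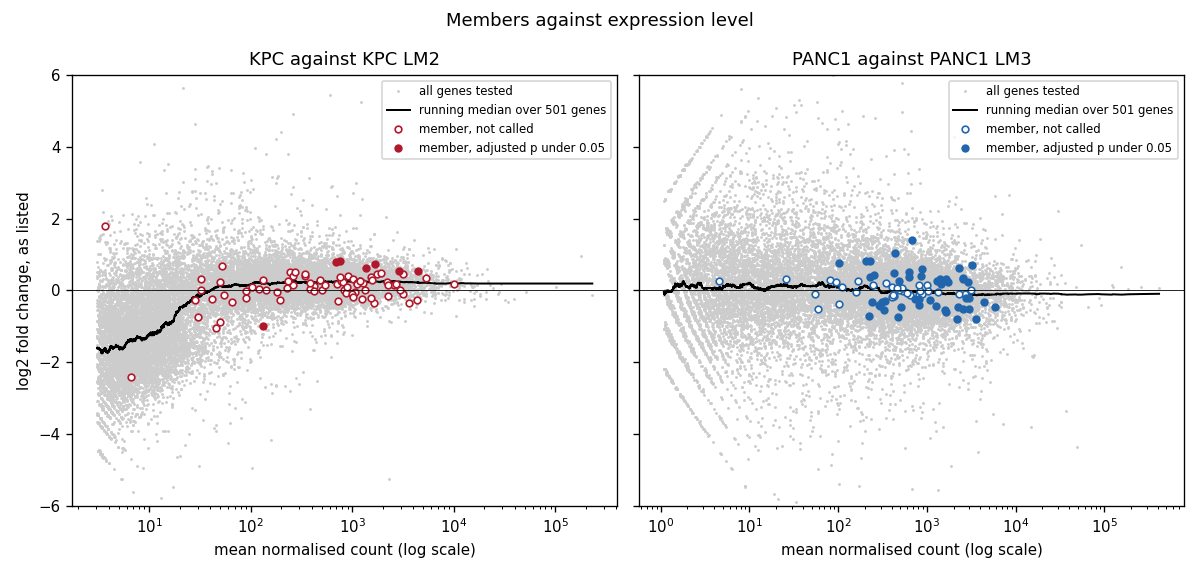
Log2 fold change as listed (vertical axis, drawn from -6 to 6) against mean normalised count (log axis) for all genes tested (grey), with the set in colour, filled where the adjusted p is under 0.05, and a running median over level as a line. In KPC the line lies well under 0 for weakly expressed genes and at about 0.22 for the levels where most of the set lies; in PANC1 it stays close to 0.

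The maintenance enzyme of DNA methylation was called in both models, with opposite listed signs. Dnmt1, which copies methylation after replication, had a mean count of 4493 and was listed at 0.54 ± 0.16 in the authors' deposited table for KPC (Wald test adjusted p = 0.016). After recentring it was at 0.32 (adjusted p = 0.17), so its call rested on the scaling. DNMT1 was at -0.81 ± 0.06 in the authors' deposited table for PANC1 (Wald test adjusted p = 7.7e-43), a 1.75-fold difference on the negative side. UHRF1, which recruits DNMT1 to hemimethylated CpGs, was negative as well in PANC1, at -0.73 ± 0.11 (adjusted p = 4.2e-11) in the authors' deposited table. The mouse gene Uhrf1 was at -0.20 ± 0.20 in the authors' deposited table, not called, with a 95% interval of -0.61 to 0.20. UHRF2, a paralogue of UHRF1 that does not replace it in maintenance, had the opposite sign in PANC1, at 0.52 ± 0.08 (adjusted p = 2e-09) in the authors' deposited table, and Uhrf2 was at 0.15 ± 0.20.

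The de novo methyltransferases were not called in either model. DNMT3A was at -0.03 ± 0.09 in PANC1 and Dnmt3a at 0.12 ± 0.20 in KPC in the authors' deposited tables. DNMT3B was at 0.08 ± 0.18 and Dnmt3b at -0.73 ± 0.44, the latter on a mean count of only 30.5 in the authors' deposited table. The 95% interval was -0.21 to 0.14 for DNMT3A and -0.27 to 0.50 for Dnmt3a. Dnmt3l, a cofactor of germ cells without catalytic activity, had mean counts of 6.58 and 4.59 in the authors' deposited tables, too low for any statement. In PANC1 the maintenance pair and not the de novo pair was called, and the difference between these pairs was not tested.

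PRC2 methylates lysine 27 of H3 through EZH2 or EZH1, with EED and SUZ12 as the subunits that both forms need. In PANC1 all 4 were called, where 69.3% of all genes at a mean count of at least 64 were called too. The paralogous catalytic subunits had opposite signs. EZH2, the form of dividing cells, was at -0.40 ± 0.08 in the authors' deposited table (Wald test adjusted p = 7.5e-07), and EZH1, the form that prevails in resting cells, was at 0.59 ± 0.08 (adjusted p = 8.8e-14). EED was at -0.46 ± 0.09 and SUZ12 at -0.54 ± 0.08 in the authors' deposited table. The human pseudogene SUZ12P1, a near copy that may share reads with SUZ12, was at -0.90 ± 0.12 in the same table, so the value of SUZ12 is uncertain to that extent. None of the 4 was called in KPC, where the authors' deposited table listed Ezh2 at -0.15 ± 0.20, Ezh1 at 0.07 ± 0.21, Eed at 0.26 ± 0.19 and Suz12 at 0.22 ± 0.24.

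The chromobox proteins read these marks, as Polycomb subunits (such as CBX2, CBX6, CBX7 and CBX8) or as heterochromatin protein 1 (CBX1, CBX3 and CBX5). Cbx2 was the one negative call of the set in KPC, at -0.99 ± 0.24 on a mean count of 132 in the authors' deposited table (adjusted p = 0.0015). CBX2 was also on the negative side in PANC1 but not called, at -0.38 ± 0.18 (adjusted p = 0.062) in the authors' deposited table. It passed there when only genes at 64 or more were tested (adjusted p = 0.047). CBX6 and CBX7, other readers of the same complex, were positive in PANC1, at 0.72 ± 0.06 and 0.81 ± 0.13 in the authors' deposited table. In the authors' deposited table for KPC, Cbx6 was at -0.05 ± 0.17 and Cbx7 at 0.50 ± 0.25, and neither was called. CBX8 was called in neither model.

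All 3 heterochromatin protein 1 genes were negative calls in PANC1, where 26.5% of all genes tested were negative calls. Among the 11301 genes at a mean count of at least 64, where these 3 lie, 4128 were negative calls. The authors' deposited table gave CBX3 at -0.46 ± 0.06, CBX5 at -0.33 ± 0.05 and CBX1 at -0.22 ± 0.05. In the authors' deposited table for KPC, Cbx1 was at 0.02 ± 0.19, Cbx3 at 0.19 ± 0.29 and Cbx5 at 0.18 ± 0.21, with no call. CBX3 has many processed pseudogenes, so its reads can be split by the counting. SUV39H1 and SUV39H2, which write the lysine 9 trimethylation that heterochromatin protein 1 binds, were negative in PANC1 too, at -0.42 ± 0.12 and -0.43 ± 0.11 in the authors' deposited table. SETDB1, which writes that mark at repeats, was positive at 0.26 ± 0.07. In the authors' deposited table for KPC, Suv39h1 was at -0.23 ± 0.25, Suv39h2 at -0.27 ± 0.33 and Setdb1 at 0.25 ± 0.17, and none of the 6 lysine 9 methyltransferases was called. SETDB2 and EHMT1 were called in neither model, and Ehmt2 was at -0.34 ± 0.23.

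Genes of the cell cycle had negative values beside these in PANC1. All 18 proliferation genes listed were negative calls, among them MKI67, a marker of cycling cells, and the replication genes MCM3 and RRM2. Their median log2 fold change was -1.13, with a range of -1.71 to -0.35, in the authors' deposited table. Negative calls made up 26.5% of all genes tested in PANC1, and 4128 of the 11301 genes at a mean count of at least 64. E2F1, a transcription factor of the G1/S transition, was at -1.63 ± 0.10 in PANC1. Mouse E2f1 was at -0.21 ± 0.25 in KPC and was not called. In KPC 2 of the 18 were called (11.1%, background 10.4%), both positive: Ccnb2 at 0.79 ± 0.21 and Mki67 at 0.59 ± 0.20 in the authors' deposited table. The median of the 18 in KPC was 0.32 as listed, where genes at a mean count of at least 64 had a median of 0.22. The part that proliferation has in the values of DNMT1, UHRF1, EZH2, SUV39H1 or the heterochromatin protein 1 genes was not tested.

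Promoters of several of these genes hold a match to an E2F motif, and they are shown because 6 of the 8 genes of the set with a match are those whose human namesakes were negative in PANC1. Promoter sequences were taken from RefSeq's mouse assembly GRCm38.p6, another build than the mm39 of the authors' files, and run from 250 bases before a listed start to 50 after it. They cover 65 of the 81 genes with 92 promoters. The motifs TTTGGCGC, TTTCGCGC, TTTCCCGC and TTTGCCGC were searched on both strands. At least 1 was found in 8.70% of the set's promoters, and in 2.91% of the 21737 promoters of genes in the KPC table. Counted by gene, 12.3% of the set's genes with a promoter and 3.33% of such genes in the KPC table had a match. By sign in PANC1, 6 of 20 genes with a negative namesake and 0 of 19 with a positive one had a match. Median CpG counts per promoter were 31 and 21 for these 2 groups, and 13 over genes of the KPC table. A match describes letters only. No human promoter was read, so mouse windows stand beside human calls. The split by sign was seen in these same data, and a link between a match and a value was not tested. Matches on either strand stand in capitals, so the first of Dnmt1 and that of Suv39h1 read as the reverse complement of a motif, and each window is written 5′ to 3′ along the gene's strand.

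Dnmt1, chr9:20952574-20952873, minus strand, and Uhrf1, chr17:56304063-56304362, plus strand, the maintenance pair:
Dnmt1: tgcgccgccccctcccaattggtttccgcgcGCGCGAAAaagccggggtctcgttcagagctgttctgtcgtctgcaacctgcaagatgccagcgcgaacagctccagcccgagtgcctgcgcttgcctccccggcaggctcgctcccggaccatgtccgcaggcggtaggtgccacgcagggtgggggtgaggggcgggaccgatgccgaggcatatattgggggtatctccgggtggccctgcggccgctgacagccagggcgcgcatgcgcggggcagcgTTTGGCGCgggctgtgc
Uhrf1: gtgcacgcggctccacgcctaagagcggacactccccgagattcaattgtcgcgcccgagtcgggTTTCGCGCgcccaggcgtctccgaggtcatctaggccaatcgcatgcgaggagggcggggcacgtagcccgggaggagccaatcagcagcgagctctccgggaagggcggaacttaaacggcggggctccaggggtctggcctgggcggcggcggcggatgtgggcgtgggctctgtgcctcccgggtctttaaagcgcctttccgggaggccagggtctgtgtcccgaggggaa
Ezh2, chr6:47594981-47595280, minus strand, and Suz12, chr11:79992856-79993155, plus strand, of PRC2:
Ezh2: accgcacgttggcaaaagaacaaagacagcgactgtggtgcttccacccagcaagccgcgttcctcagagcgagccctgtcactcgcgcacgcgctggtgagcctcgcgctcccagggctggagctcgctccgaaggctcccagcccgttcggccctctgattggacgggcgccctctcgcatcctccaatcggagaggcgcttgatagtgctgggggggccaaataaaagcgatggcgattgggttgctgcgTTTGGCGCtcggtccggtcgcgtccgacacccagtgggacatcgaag
Suz12: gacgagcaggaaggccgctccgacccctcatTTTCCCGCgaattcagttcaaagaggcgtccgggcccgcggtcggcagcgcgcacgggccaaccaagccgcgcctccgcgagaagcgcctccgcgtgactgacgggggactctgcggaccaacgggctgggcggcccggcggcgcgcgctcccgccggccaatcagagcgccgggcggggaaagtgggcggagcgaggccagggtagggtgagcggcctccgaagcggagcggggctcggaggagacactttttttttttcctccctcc
Suv39h1, chrX:8074312-8074611, minus strand, and Cbx3, chr6:51470366-51470665, plus strand, a writer and a reader of lysine 9 methylation:
Suv39h1: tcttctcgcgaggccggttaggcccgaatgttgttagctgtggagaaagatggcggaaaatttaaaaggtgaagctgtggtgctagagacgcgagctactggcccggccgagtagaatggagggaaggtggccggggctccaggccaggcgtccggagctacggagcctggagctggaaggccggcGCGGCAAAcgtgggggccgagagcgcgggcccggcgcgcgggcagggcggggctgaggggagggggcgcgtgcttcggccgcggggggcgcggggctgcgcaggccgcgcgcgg
Cbx3: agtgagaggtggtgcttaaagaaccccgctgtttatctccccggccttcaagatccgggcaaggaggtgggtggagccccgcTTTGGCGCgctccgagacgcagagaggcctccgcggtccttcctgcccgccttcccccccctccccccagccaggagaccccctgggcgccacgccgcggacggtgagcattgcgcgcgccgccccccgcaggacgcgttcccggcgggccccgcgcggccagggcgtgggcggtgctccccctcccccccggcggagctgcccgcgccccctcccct

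Dnmt1 has 2 matches, at positions 32 and 284 from the 5′ end of its window, and the other 5 have 1 each. Ezh2 and Cbx3 share the motif TTTGGCGC with the second match of Dnmt1. The remaining 2 genes with a match were Kmt5c and Sirt4, whose human namesakes were not called. Other listed starts of Dnmt1, Uhrf1, Suv39h1 and Cbx3 had no match.

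**Figure D2:**
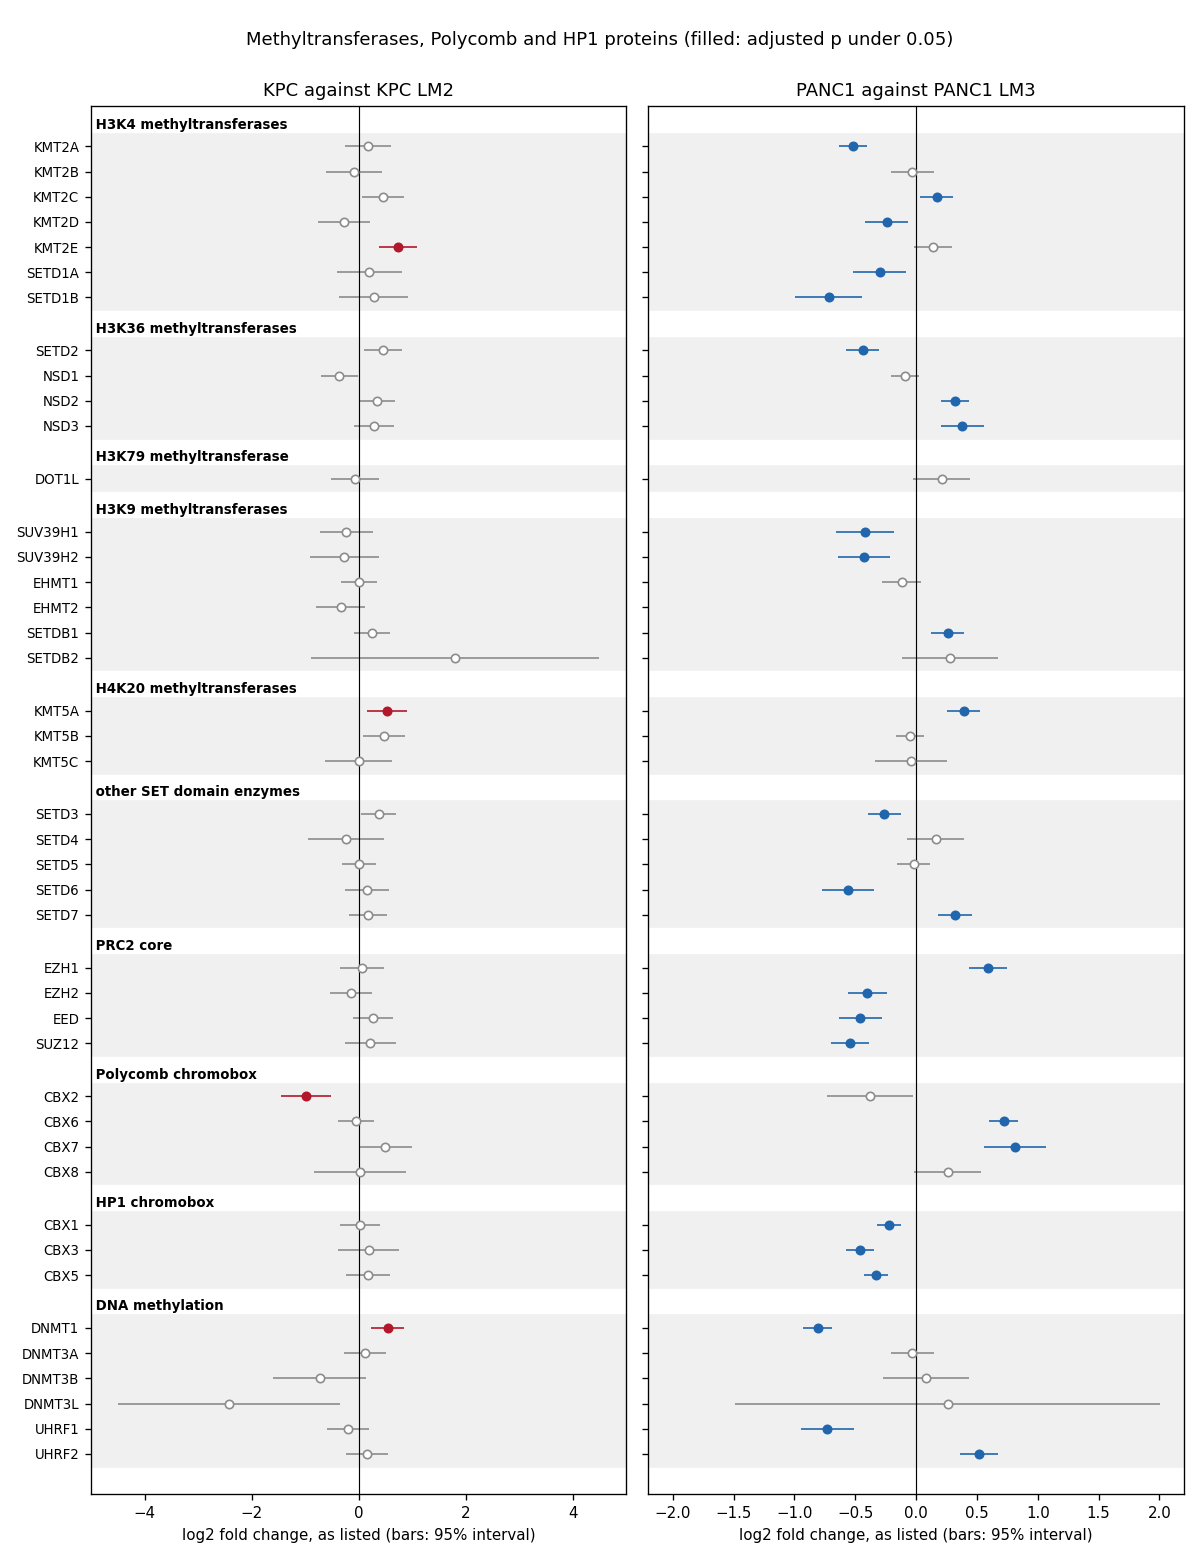
Log2 fold change as listed with its 95% interval for methyltransferases, Polycomb, heterochromatin protein 1 and DNA methylation genes, KPC on the left (wider axis) and PANC1 on the right, filled where the adjusted p is under 0.05. DNMT1, UHRF1, EZH2, EED, SUZ12 and CBX1, CBX3 and CBX5 lie under 0 in PANC1 with EZH1, UHRF2, CBX6 and CBX7 above it; 4 genes are filled in KPC (KMT2E, KMT5A, CBX2 and DNMT1).

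Lysine 4 methyltransferases mark promoters (SETD1A, SETD1B, KMT2A, KMT2B) and enhancers (KMT2C, KMT2D). In PANC1 5 of 7 were called, 4 of them negative. This share of 71.4% was near the 69.3% of all genes at a mean count of at least 64. SETD1B was at -0.72 ± 0.14, KMT2A at -0.52 ± 0.06, SETD1A at -0.30 ± 0.11 and KMT2D at -0.24 ± 0.09 in the authors' deposited table. The calls of SETD1A and KMT2D did not outlast subtraction of the level trend (adjusted p = 0.089 and 0.07). KMT2C was positive at 0.17 ± 0.07 in the authors' deposited table, the smallest called change of the set. In KPC the one call was Kmt2e, a family member thought to lack methyltransferase activity, at 0.74 ± 0.18 on a mean count of 1675 (adjusted p = 0.0012) in the authors' deposited table. KMT2E was at 0.14 ± 0.08 in PANC1 (adjusted p = 0.12). For KPC, the authors' deposited table put Kmt2a at 0.17 ± 0.22, Kmt2c at 0.45 ± 0.20, Kmt2d at -0.27 ± 0.25, Setd1a at 0.20 ± 0.31 and Setd1b at 0.28 ± 0.33.

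Of the 4 lysine 36 methyltransferases 3 were called in PANC1 and none in KPC. The PANC1 share of 75.0% was near the 69.3% of all genes at a mean count of at least 64. SETD2, the sole writer of the trimethyl mark on transcribed genes, was negative in PANC1 at -0.44 ± 0.07 in the authors' deposited table (adjusted p = 7.6e-10). NSD2 and NSD3, which write the dimethyl mark, were positive at 0.32 ± 0.06 and 0.38 ± 0.09, and NSD1, of the same activity, was not called at -0.09 ± 0.06, in the authors' deposited table. Setd2 was at 0.45 ± 0.18 in KPC (adjusted p = 0.08), with Nsd2 at 0.34 ± 0.17, Nsd3 at 0.29 ± 0.19 and Nsd1 at -0.36 ± 0.18, in the authors' deposited table. DOT1L, the lysine 79 methyltransferase, was at 0.21 ± 0.12 and Dot1l at -0.07 ± 0.23, with no call in the authors' deposited tables.

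KMT5A, which writes monomethylation of H4 lysine 20 in mitosis, was among the 4 genes called in both models. KMT5A was at 0.39 ± 0.07 in PANC1 and Kmt5a at 0.53 ± 0.19 (adjusted p = 0.045) in KPC in the authors' deposited tables. The mouse call was lost when p-values were adjusted over all genes with a p (0.052). KMT5B and KMT5C, which add further methyl groups, were called in neither model. Of the other SET domain enzymes, SETD6 and SETD3, which methylate non-histone proteins, were negative in PANC1 at -0.56 ± 0.11 and -0.26 ± 0.07 in the authors' deposited table. SETD7 was positive at 0.32 ± 0.07. Setd6, Setd3 and Setd7 were at 0.16 ± 0.21, 0.37 ± 0.17 and 0.17 ± 0.18 in KPC, without a call, in the authors' deposited table.

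Of the 16 lysine demethylases none was called in KPC (background 10.4%) and 11 were called in PANC1, 6 positive and 5 negative in the authors' deposited tables. The PANC1 share of 68.8% was near the 69.3% of all genes at a mean count of at least 64. KDM7A, which removes lysine 9 and lysine 27 dimethylation, had the largest value at 1.03 ± 0.10, a 2.04-fold difference (adjusted p = 9.6e-26). KDM6B, a lysine 27 demethylase induced by many signals, was positive at 0.77 ± 0.19, while its paralogue KDM6A was negative at -0.25 ± 0.09 (adjusted p = 0.0078) in the authors' deposited table. The lysine 9 and 36 demethylases of the KDM4 family were divided as well, with KDM4A at -0.61 ± 0.06, KDM4B at -0.31 ± 0.14 and KDM4C at 0.42 ± 0.12 in the authors' deposited table. KDM4B lost its call after recentring (adjusted p = 0.075). KDM1A, the flavin-dependent lysine 4 demethylase of the CoREST complex, was at -0.53 ± 0.06 and its paralogue KDM1B at 0.26 ± 0.10 in the authors' deposited table. KDM3B was at -0.46 ± 0.06, and of the lysine 4 trimethyl demethylases KDM5A was at 0.22 ± 0.06 and KDM5C at 0.22 ± 0.05 in the authors' deposited table. The KDM1, KDM4 and KDM6 families thus had called members of both signs, and the KDM5 family had positive calls alone.

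In KPC the 16 demethylases lay between -0.10 and 0.50 on the log2 scale in the authors' deposited table. Kdm4c (0.50 ± 0.23) and Kdm7a (0.45 ± 0.25) were at the upper end, and Kdm6a, Kdm6b and Kdm4b were at 0.15 ± 0.30, -0.03 ± 0.33 and -0.05 ± 0.27. The authors' deposited table listed Kdm1a at 0.26 ± 0.18, Kdm1b at 0.04 ± 0.20, Kdm3b at 0.20 ± 0.17, Kdm4a at 0.23 ± 0.20, Kdm5a at 0.16 ± 0.17 and Kdm5c at 0.38 ± 0.17. The median SE of members at 64 or more was 0.208 in KPC and 0.0855 in PANC1 in the authors' deposited tables, which limits the size of change that KPC could show.

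HDAC1 and HDAC2, the paired catalytic subunits of the SIN3, NuRD and CoREST complexes, were both negative in PANC1. HDAC1 was at -0.81 ± 0.05 (adjusted p = 7.9e-49) and HDAC2 at -0.22 ± 0.05 in the authors' deposited table. In KPC, Hdac2 was a positive call at 0.61 ± 0.19 (adjusted p = 0.024, 0.17 after recentring) and Hdac1 was at 0.30 ± 0.25 in the authors' deposited table. Mouse Hdac1 has a near-identical pseudogene, Hdac1-ps, which may take reads from it, so its mean count of 133 in the authors' deposited table is uncertain. HDAC3 and HDAC8, the other class I enzymes, were called in neither model.

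HDAC9, a class IIa enzyme that binds MEF2 factors, had the largest change of the set in PANC1 at 1.41 ± 0.09, a 2.66-fold difference on a mean count of 684 (adjusted p = 3.2e-58) in the authors' deposited table. Hdac9 was on the other side in KPC, at -0.88 ± 0.41 on a mean count of 49.8, and was not called (adjusted p = 0.13) in the authors' deposited table. HDAC5 of the same class was at 0.37 ± 0.13 and Hdac5 at 0.39 ± 0.32. HDAC11, the class IV enzyme that removes long fatty acyl groups, was positive in PANC1 at 0.83 ± 0.14, and Hdac11 was at -0.12 ± 0.34 in the authors' deposited tables.

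HDAC6, a cytoplasmic enzyme that deacetylates tubulin, was a positive call in both models, at 0.62 ± 0.05 in PANC1 and 0.79 ± 0.25 in KPC (adjusted p = 0.023, 0.11 after recentring) in the authors' deposited tables. HDAC10, the other class IIb enzyme and a polyamine deacetylase, was negative in PANC1 at -0.33 ± 0.11, with Hdac10 at -0.22 ± 0.28 in KPC, in the authors' deposited tables. Over all genes tested in PANC1, 26.0% were positive calls and 26.5% negative. Of the 7 sirtuins, which need NAD, 3 were positive in PANC1 and none negative. These were the nuclear SIRT1 at 0.32 ± 0.06, the cytoplasmic SIRT2 at 0.35 ± 0.06 and the mitochondrial SIRT5, which removes acidic acyl groups, at 0.48 ± 0.09, in the authors' deposited table. Sirt1, Sirt2 and Sirt5 were at 0.20 ± 0.21, 0.25 ± 0.25 and 0.67 ± 0.35 in KPC, not called, in the authors' deposited table.

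TET2 was the one TET gene called, and only the mouse model had the call. Tet2 was at 0.81 ± 0.27 on a mean count of 761 in the authors' deposited table (adjusted p = 0.033, 0.13 after recentring). TET2 was at -0.13 ± 0.10 in PANC1, with a 95% interval of -0.33 to 0.06, in the authors' deposited table. Tet1 was at -1.04 ± 0.46 on a mean count of 46.1, not called (adjusted p = 0.12), and TET1 was at -0.10 ± 0.24 in the authors' deposited tables. TET3 and Tet3 were at 0.06 ± 0.10 and -0.19 ± 0.23.

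In all, 51 genes were called in at least 1 model, which is 63.8% of the 80 in both tables against 65.3% of all 12777 genes tested in both. Of these, 4 were called in both (5.0%, background 7.61%) and 3, CBX2, KMT2E and TET2, in KPC alone (3.75%, background 4.09%). Each share lay under its background. The status of these 3 depended on the processing. CBX2 was called in PANC1 as well when only genes at 64 or more were tested (adjusted p = 0.047). KMT2E was called there after recentring (adjusted p = 0.047), and Tet2 lost its KPC call after recentring. The 30 with no call in either model count Ehmt2, which was analysed in KPC alone. They include, beside those above, KMT2B, which writes lysine 4 trimethylation, NSD1, SETD4 and SETD5. Uncalled demethylases were KDM2A, KDM2B, KDM3A, KDM5B and KDM8, and uncalled deacetylases were HDAC4, HDAC7, SIRT3, SIRT4, SIRT6 and SIRT7. Mean counts were under 64 for 12 genes in KPC and 4 in PANC1 in the authors' deposited tables, DNMT3L, SIRT4 and TET1 in both. In KPC 49 of the uncalled genes were positive and 25 negative, and in PANC1 15 were positive and 17 negative, in the authors' deposited tables. After recentring on genes at 64 or more, the same genes were 26 positive and 48 negative in KPC, and 17 positive and 15 negative in PANC1, so the balance of signs depended on the scaling.

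**Figure D3:**
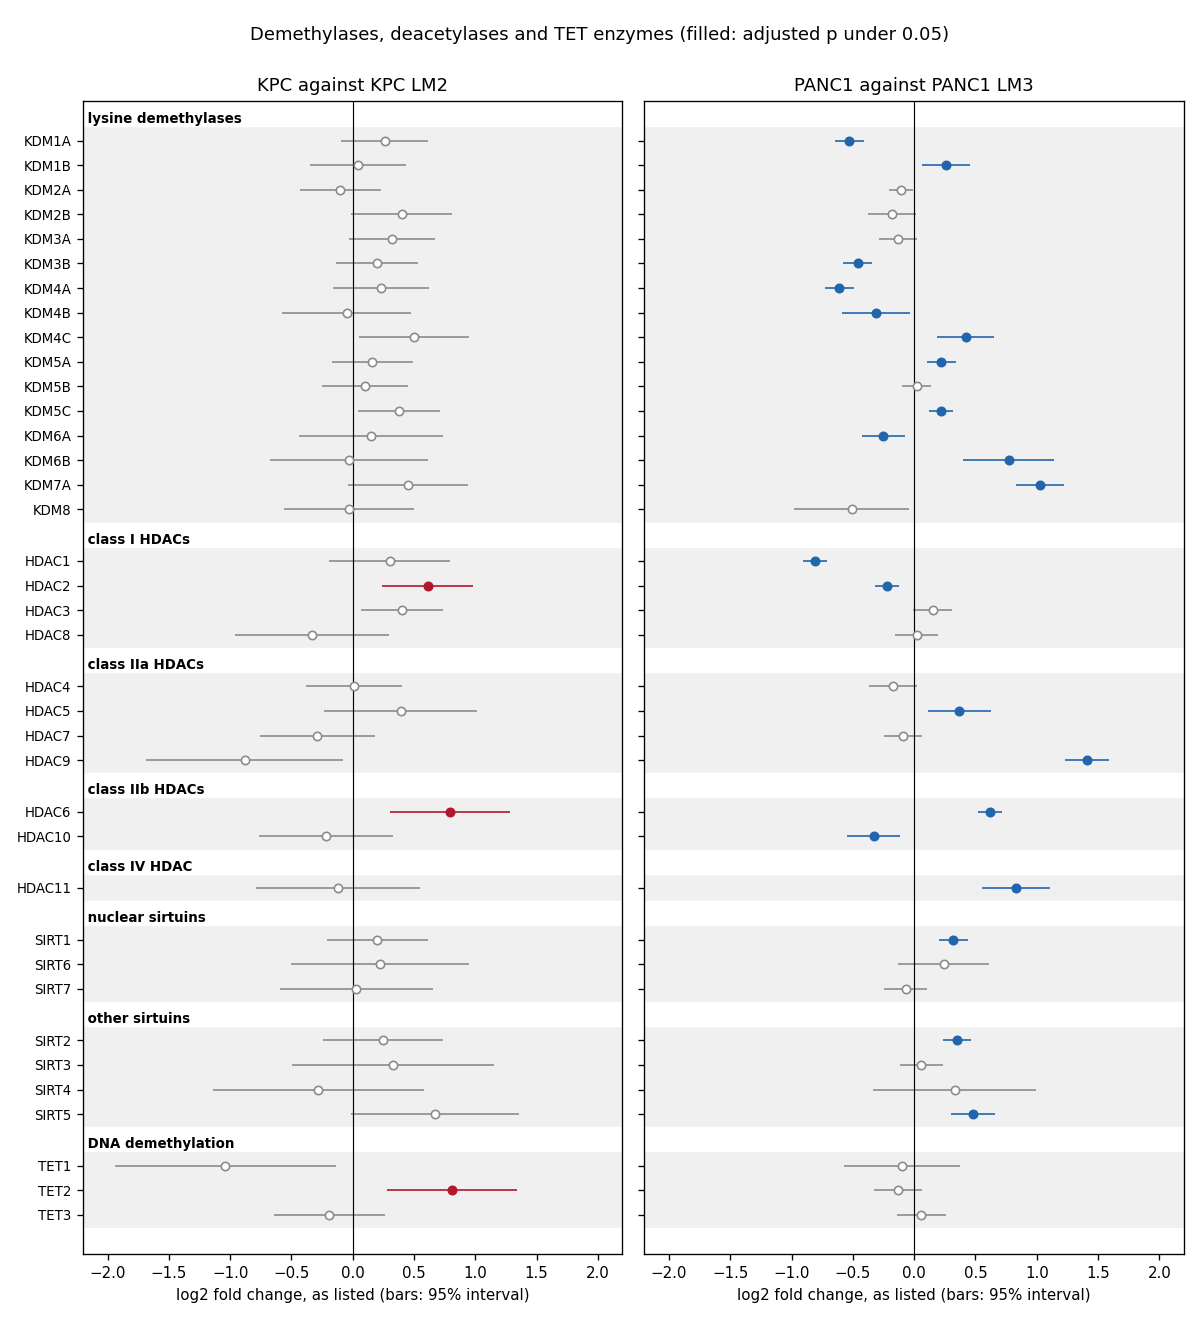
Log2 fold change as listed with its 95% interval for demethylases, deacetylases, sirtuins and TET genes in KPC (left) and PANC1 (right), filled where the adjusted p is under 0.05. HDAC9 and KDM7A lie farthest right and HDAC1 farthest left in PANC1; HDAC2, HDAC6 and TET2 are the 3 filled genes in KPC.

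The 2 tables share no sample, so the fold changes of a gene can be compared between models, provided that both list the groups in the same order. With that order, the difference passed the threshold for 20 of 80 genes (25.0%), against 34.9% of 12777 genes tested in both. With the opposite order in one table it also passed for 20 of 80, against 30.0% of all genes, and 2 of these were among the first 20. DNMT1 had the clearest difference of opposite calls, -1.34 ± 0.17 (PANC1 minus KPC, adjusted p = 2.7e-13). HDAC2, also called with opposite signs, differed by -0.83 ± 0.20 (adjusted p = 0.00023). HDAC6 and KMT5A, called positive in both, differed by -0.17 ± 0.25 and -0.14 ± 0.20, within error. If one table had the opposite order, the values of DNMT1 would differ by -0.27 (adjusted p = 0.25), while those of UHRF1 (-0.94, adjusted p = 0.00046) and UHRF2 (0.66, adjusted p = 0.012) would pass, so the comparison stands on that order. Of the 18 named genes past the threshold, CBX6 and KMT2E passed it in either order, KMT2E with opposite signs. After recentring, EED, KDM3B, KMT2A, KMT2E, SETD1B, SETD3, SETD6 and SUZ12 no longer passed (adjusted p between 0.063 and 0.15), while CBX6 was at 1.02 (adjusted p = 4.2e-07) and HDAC2 at -0.58 (adjusted p = 0.015). Over all genes, 7.61% were called in both models and 3.26% with the same listed sign.

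**Figure D4:**
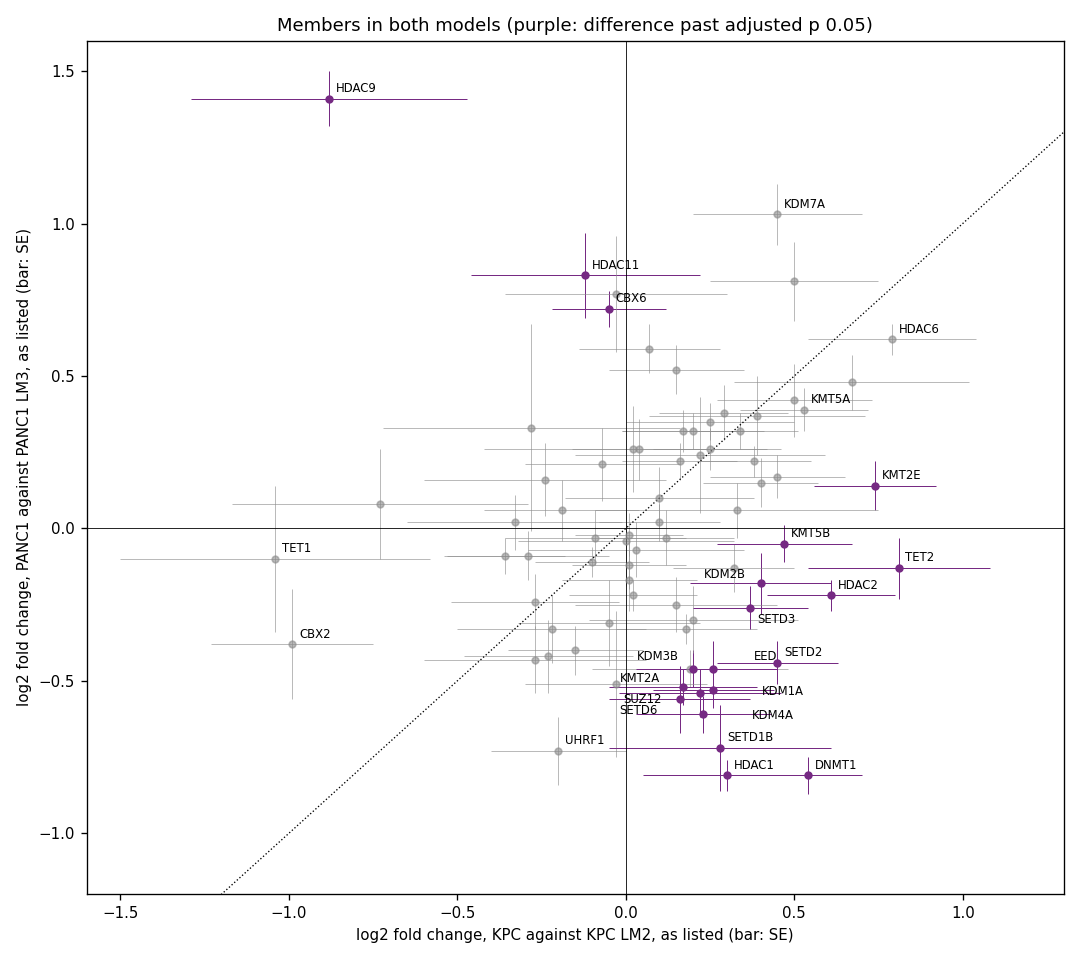
Log2 fold change as listed in PANC1 against that in KPC for genes of the set with an SE under 0.8 in KPC; bars are SE, the dotted line marks equal values, and purple marks a difference with an adjusted p under 0.05 if both tables list the groups in the same order. HDAC9 stands apart at the upper left, and DNMT1, HDAC1 and SETD1B at the lower right.

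The partners of these enzymes were taken from lists drawn up by function. Over all genes tested, 52.5% were called in PANC1 (26.0% positive, 26.5% negative) and 10.4% in KPC. At a mean count of at least 64 the shares were 69.3% and 12.7%. In PANC1 61.1% of the corepressor list, 55.6% of COMPASS, 60.9% of Polycomb partners and 63.2% of SWI/SNF were called, each under 69.3%. Corepressor subunits that carry HDAC1 and HDAC2 had 10 negative and 1 positive calls of 18 in PANC1, with a median of -0.38 in the authors' deposited table. CHD3 and CHD4, the remodellers of NuRD, were at -0.79 ± 0.06 and -0.71 ± 0.06, MTA2 at -0.60 ± 0.06 and the scaffold gene SIN3A at -0.58 ± 0.07 in the authors' deposited table. In KPC 1 of 18 was positive and 1 negative (median 0.22), with Chd3 at -0.73 ± 0.19 and Tbl1xr1 at 0.71 ± 0.26 in the authors' deposited table. Chd3 was thus negative in both models as listed. Partner subunits of the lysine 4 methyltransferase complexes (COMPASS), not all of them shared by every complex, were listed too. They had 5 negative and 0 positive calls of 9 in PANC1 (median -0.28). HCFC1 was at -0.64 ± 0.08, PAXIP1 at -0.48 ± 0.09, MEN1 (menin) at -0.38 ± 0.09 and DPY30 at -0.28 ± 0.08 in the authors' deposited table. In KPC 1 of 9 was called (median 0.05), Ash2l at 0.73 ± 0.20 in the authors' deposited table.

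HELLS, a heterochromatin remodeller needed for DNA methylation at repeats, was at -2.12 ± 0.08 in PANC1 (adjusted p = 8.6e-149) in the authors' deposited table. TRIM28, the corepressor that recruits SETDB1, was at -0.59 ± 0.06, ATRX at -0.51 ± 0.06 and MORC2 at -0.22 ± 0.08. These 4 were the calls, all negative, in a list of 7 genes with a median of -0.51 in the authors' deposited table. That share of 57.1% lay under the 69.3% of all genes at a mean count of at least 64. In KPC none of 6 was called (median 0.03), and Hells was at 0.24 ± 0.22 in the authors' deposited table. Polycomb partners went both ways in PANC1, with 8 positive and 6 negative of 23 (median 0.11): RBBP4 was at -0.67 ± 0.05, PCGF3 at -0.73 ± 0.08, ASXL1 at -0.43 ± 0.05 and PCGF1 at 0.87 ± 0.10 in the authors' deposited table. In KPC 1 of 24 was called (median 0.13), the PRC2 accessory gene Phf19 at 1.05 ± 0.28 in the authors' deposited table.

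Histone acetyltransferases, which oppose the HDACs, had 5 negative and 0 positive calls of 11 in PANC1 (median -0.15). That share of 45.5% lay under the 52.5% of all genes tested. CREBBP was at -0.66 ± 0.09, KAT2B at -0.66 ± 0.11, KAT6B at -0.58 ± 0.09 and HAT1 at -0.37 ± 0.07 in the authors' deposited table. None of 11 was called in KPC (median 0.19), where Kat6a was closest at 0.48 ± 0.18 (adjusted p = 0.057) in the authors' deposited table. SWI/SNF remodeller subunits had 4 positive and 8 negative of 19 in PANC1 (median -0.13), with SMARCD2 at -1.09 ± 0.09 and SMARCC1 at -0.69 ± 0.06, in the authors' deposited table. In KPC 2 of 19 were called (10.5%, background 10.4%, median 0.20), both positive, Brd7 at 0.55 ± 0.17 and Pbrm1 at 0.65 ± 0.22 in the authors' deposited table. KPC values of all partner lists are given as listed, not recentred on the median of 0.22 for genes at 64 or more. Readers of methylated CpGs and base excision genes had 3 positive and 1 negative of 8 in PANC1 (median 0.12), and 1 positive of 8 in KPC (median 0.13), the methyl-CpG binding factor Zbtb38 at 1.24 ± 0.23, in the authors' deposited tables. ZBTB38 was also positive in PANC1, at 0.19 ± 0.07, in the authors' deposited table. Acetyl-lysine readers had 1 positive and 1 negative of 6 in PANC1 (median 0.00) and no call of 6 in KPC (median -0.18) in the authors' deposited tables.

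**Figure D5:**
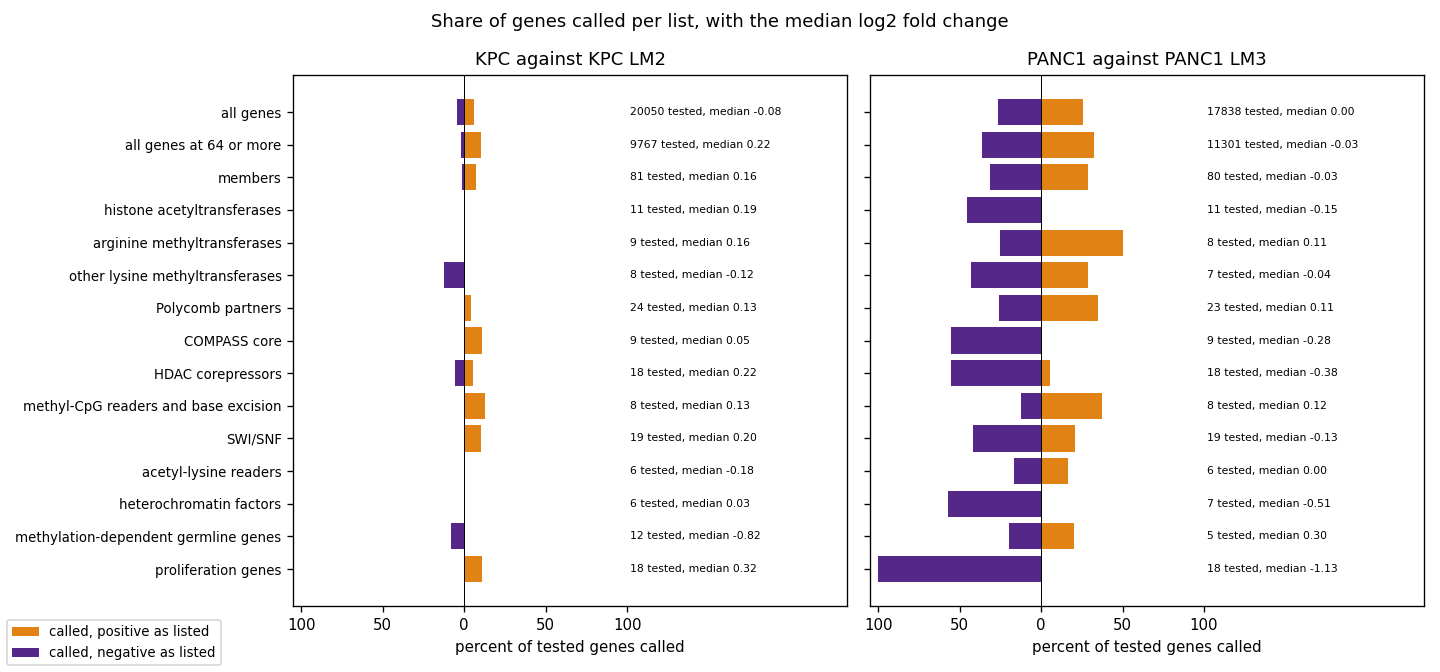
Percent of tested genes called with a positive (right) or negative (left) log2 fold change as listed, for all genes, the set and partner lists, with the number tested and the median log2 fold change printed beside each. In PANC1 all 18 proliferation genes are negative calls, and the acetyltransferase, COMPASS and heterochromatin lists have negative calls alone; in KPC no partner list has more than 2 calls.

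Markers of the labelled cell type were present in both models. The keratin genes Krt8 and Krt18 had mean counts of 10742 and 28158, and KRT8 and KRT18 of 49702 and 37055, in the authors' deposited tables. In PANC1 these keratins and CDH1 were negative, with KRT8 at -4.35 ± 0.06 and CDH1 at -3.92 ± 0.10, and 5 of 8 carcinoma markers were negative and 2 positive in the authors' deposited table. In KPC 1 of 8 was positive and 1 negative, Krt7 at 1.18 ± 0.18 and Epcam at -1.14 ± 0.28, in the authors' deposited table. Markers of other cells a liver tumour could hold were low in KPC, on mean counts of at most 26.7 for hepatocyte, 33.1 for leukocyte, 41.4 for fibroblast and 30.7 for endothelial genes in the authors' deposited table. Calls among them were 0 of 7, 1 of 6, 1 of 8 and 0 of 8, all negative. In PANC1 the same 4 lists had 1 of 4, 2 of 5, 1 of 6 and 1 of 3 called. These are human genes read against hg19, so they are no measure of host cells of another species. CD68, a lysosomal gene of macrophages that other cells express too, was positive at 1.91 ± 0.07 on a mean count of 1103, and the collagen gene COL3A1 at 1.05 ± 0.11 on 405, in the authors' deposited table. The negative calls were the hepatocyte gene CPS1 at -1.45 ± 0.18, the leukocyte gene ITGAM at -0.92 ± 0.34 and the endothelial gene CDH5 at -4.09 ± 0.95, on mean counts of 132, 28.5 and 9.89 in the authors' deposited table. The part of other cells in the values of the chromatin genes was not tested.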

How the data were processed

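RNA from 12 samples was sequenced. Per the submitters' processing notes, STAR 2.7.6a, featureCounts 2.0.0, MultiQC 1.9 and DESeq2 1.24 were used with builds mm39 and hg19; whether counting used strand is not given in the sources used here. Per the file headers, each table deposited by the authors holds a mean normalised count over samples (a signal), a log2 fold change with its SE on the log2 scale, a Wald score and p-values, raw and adjusted. The score equals the log2 fold change over its SE. The deposited tables hold no counts per sample, so the planned edgeR test on counts could not be run and the listed Wald test took its place.

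Computed here (Python 3.11.15, pandas 2.3.3, scipy 1.17.1) were counts of calls at an adjusted p under 0.05, 95% intervals (1.96 SE), and the difference between models over its combined SE with a two-sided normal p, Benjamini-Hochberg adjusted over 12777 genes. Alternatives were an adjusted p under 0.01, a log2 fold change past 1 in absolute size, adjustment over every gene listed with a p, testing genes at 64 or more only, recentring on their median, and subtracting a running median over 501 genes ordered by level. The steps were tested on simulated data that held no trend of fold change with level. Recentring and the running median were therefore not tested on a trend such as that in KPC. Every gene of the set called in either model was named, with others fixed by symbol or chosen as the most expressed of an uncalled group. Up to 4 of each partner list were named by smallest adjusted p. Other genes of the set are given to account for it. E2F1, Rhox5, Krt8, Krt18 and the pseudogene SUZ12P1 were also named outside this rule. Values of 1 gene of the set and 1 of a partner list are not reported here. Genes and lists were chosen with earlier results of these data known.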

Additional observations from a re-analysis of the deposited data

Results flagged for a closer look

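Of the 56 named genes, 18 had fold changes that differed between the models with an adjusted p under 0.05 over all 12777 genes tested in both. Most of the 56 were named for a call in these same tables, so this count is no separate result. Over the whole set 20 of 80 genes passed (25%), against 34.9% of all genes tested in both. The values are PANC1 minus KPC on the log2 scale and assume that both tables list the groups in the same order. DNA methylation enzymes were represented by DNMT1 at -1.34 ± 0.17 and TET2 at -0.94 ± 0.29. Polycomb genes were EED at -0.72, SUZ12 at -0.76 and CBX6 at 0.77. Histone methyltransferases and related SET proteins were SETD1B at -1.01, KMT2A at -0.68, KMT2E at -0.60, SETD2 at -0.88, SETD3 at -0.63 and SETD6 at -0.72. Demethylases were KDM1A at -0.80, KDM3B at -0.66 and KDM4A at -0.84. Deacetylases were HDAC9 at 2.29 ± 0.41, HDAC11 at 0.95, HDAC1 at -1.12 and HDAC2 at -0.83. After recentring, EED, KDM3B, KMT2A, KMT2E, SETD1B, SETD3, SETD6 and SUZ12 no longer passed. The models also differ in species, genome build and generation of the derivative line, which cannot be told apart.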

How the results depend on the processing

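In KPC the 7 called genes became 2 at an adjusted p under 0.01 (1 positive, 1 negative), 0 past a log2 fold change of 1 (0 and 0), 3 after recentring (1 and 2) and 2 after subtraction of the running median (0 and 2). In PANC1 the 48 became 2 past a log2 fold change of 1 (2 and 0), and were 43 to 51 under the other 5 alternatives.

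Recentring turned the sign of 15 uncalled KPC genes, each then at -0.01 to -0.20: Cbx1 -0.20, Cbx3 -0.03, Cbx5 -0.04, Dnmt3a -0.10, Ezh1 -0.15, Kdm1b -0.18, Kdm3b -0.02, Kdm5a -0.05, Kdm6a -0.07, Kmt2a -0.05, Setd1a -0.01, Setd6 -0.06, Setd7 -0.05, Sirt1 -0.02 and Uhrf2 -0.07. The running median turned these too, to -0.21, -0.06, -0.01, -0.10, -0.16, -0.17, -0.04, -0.09, -0.08, -0.07, -0.04, -0.09, -0.07, -0.01 and -0.11, with Suz12 at -0.03 and Kdm4a at 0. It left Dnmt1 at 0.33, Hdac2 at 0.37, Hdac6 at 0.55, Kmt5a at 0.29 and Tet2 at 0.58, all uncalled.

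Differences between models passed for 18 of the 56 named genes, and for 15 after recentring, 13 after the running median and 19 in the opposite group order, not all of them the same genes: of the 18, 10, 8 and 2 passed. In that order HDAC2 (0.38), KMT2E (0.88), SETD2 (0.01), SETD3 (0.10) and TET2 (0.68) changed sign. Smaller PANC1 calls depended on the scaling: CBX1 was uncalled after the running median (adjusted p = 0.085), while KMT2E and HDAC3 were then called (0.024 and 0.044). KDM8 (-0.67, adjusted p = 0.0096), CBX2 (0.022), KDM5B (0.041) and DOT1L (0.042) were newly called there too.

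No paired analysis was possible because the tables hold no value per sample, although replicate numbers recur across groups. For the same reason the count tests and the omission of single replicates were not run, depth stays unknown, and no result here can be tied to or freed from 1 library.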

Other observations

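Germline genes whose silencing is known to depend on DNA methylation were mostly at low mean counts. Of 12 tested in KPC, 1 was called (8.33%, background 10.4%). It was the Tudor domain gene Tdrd1 at -2.57 ± 0.76 on a mean count of 19.8 in the authors' deposited table. Rhox5, a homeobox gene of the same list, had a mean count of 711 and was listed at 2.64 ± 1.44, not called (adjusted p = 0.21) in the authors' deposited table. The list's median was -0.82 in the authors' deposited table, at levels where all genes of KPC tend to negative values. Of 5 tested in PANC1, the RNA helicase gene MOV10L1 was at 4.04 ± 0.98 and the synaptonemal complex gene SYCP3 at -1.85 ± 0.52, on mean counts of 7.75 and 14.5, in the authors' deposited table (median 0.30).

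Arginine methyltransferases had 4 positive and 2 negative calls of 8 in PANC1 (75.0%, median 0.11) and none of 9 in KPC (median 0.16). In PANC1 69.3% of all genes at a mean count of at least 64 were called. PRMT3, which methylates a ribosomal protein, was at 1.35 ± 0.07 (adjusted p = 3.5e-80) and PRMT9 at 0.77 ± 0.12, with PRMT2 at -0.39 ± 0.07, in the authors' deposited table. Lysine methyltransferases outside the set had 2 positive and 3 negative calls of 7 in PANC1 (71.4%, median -0.04). Among them were SMYD5 at 0.39 ± 0.08 and SETMAR at -0.71 ± 0.18 in the authors' deposited table. In KPC 1 of 8 was called (median -0.12), Smyd1 at -2.08 ± 0.70 on a mean count of 14.3, in the authors' deposited table.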
